A study of Mus musculus with 8 samples.

Results

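A set of 10 genes that write, erase, feed or read DNA methylation were followed through 2 fractions of the same mouse leukaemias. They are Dnmt1, Uhrf1, Dnmt3a, Dnmt3b, Tet1, Tet2, Tet3, Idh1, Idh2 and Mbd2. Members were all array probe sets that the platform annotation assigns to 1 of these symbols alone, 25 of the 45101 probe sets on the array and 10 of its 18193 named genes. A probe set is a group of short probes whose signals are summarised as 1 intensity for a transcript. Both probe sets of Dnmt3b and 1 of 2 of Uhrf1 were called higher in c-kit-high cells, and a probe set each of Tet2, Idh1 and Idh2 was lower. Dnmt3a, Tet2 and Idh2 had probe sets that differed among themselves, and Tet1 and Tet3 gave little signal in either fraction.

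All samples were spleen cells of mice with acute myeloid leukaemia driven by MLL-AF10. Per the labels, c-kit+ marrow cells, immortalised with a retrovirus, had been given to syngeneic hosts of the strain written CD57BL/6 after sub-lethal irradiation. Each of 4 mice, numbered _948, _951, _952 and _953, gave a c-kit-high fraction (CD117pos) and a c-kit-negative fraction (CD117neg), separated by flow cytometry. There were thus 4 arrays per fraction and no normal cells. The labels do not name the promoter that drives the fusion or the age of the mice, nor say whether the leukaemias came from separate transductions. P-values between fractions thus concern the within-mouse difference in these 4 mice only.

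DNMT1 copies methylation of CpG sites onto the new strand after DNA replication, and UHRF1 brings it to sites methylated on 1 strand only. DNMT3A and DNMT3B methylate DNA de novo. TET enzymes oxidise 5-methylcytosine with 2-oxoglutarate as cosubstrate, which IDH1 makes in the cytosol and IDH2 in mitochondria, and MBD2 binds methylated CpG and recruits the NuRD repressor complex. DNMT3A, TET2, IDH1 and IDH2 are among the genes known to be mutated in human acute myeloid leukaemia.

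Because DNMT1 and UHRF1 are made mainly in S phase, their promoters were read for the E2F motif, with those of Dnmt3b, whose 2 probe sets rose, and Tet2, whose probe sets differed, shown beside them. Each stretch runs 5′ to 3′ from 250 bases before to 50 bases after a RefSeq transcript start of build GRCm38.p6. Capitals mark the E2F motif, searched as TTTCGCGC or TTTGGCGC on both strands.
Uhrf1 promoter, chr17:56304063-56304362, plus strand: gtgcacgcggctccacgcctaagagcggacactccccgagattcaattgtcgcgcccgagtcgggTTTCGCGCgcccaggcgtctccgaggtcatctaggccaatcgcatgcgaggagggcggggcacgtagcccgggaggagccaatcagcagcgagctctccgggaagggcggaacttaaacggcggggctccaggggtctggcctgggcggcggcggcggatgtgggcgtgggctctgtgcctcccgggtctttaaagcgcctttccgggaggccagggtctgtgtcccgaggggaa
Dnmt1 promoter, chr9:20952574-20952873, minus strand: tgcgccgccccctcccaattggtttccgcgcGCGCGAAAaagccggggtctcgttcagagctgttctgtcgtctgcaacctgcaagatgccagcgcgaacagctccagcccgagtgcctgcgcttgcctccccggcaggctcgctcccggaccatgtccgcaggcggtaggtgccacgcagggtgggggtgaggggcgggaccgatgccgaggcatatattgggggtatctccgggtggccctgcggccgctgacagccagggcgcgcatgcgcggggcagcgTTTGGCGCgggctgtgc
Dnmt3b promoter, chr2:153649199-153649498, plus strand: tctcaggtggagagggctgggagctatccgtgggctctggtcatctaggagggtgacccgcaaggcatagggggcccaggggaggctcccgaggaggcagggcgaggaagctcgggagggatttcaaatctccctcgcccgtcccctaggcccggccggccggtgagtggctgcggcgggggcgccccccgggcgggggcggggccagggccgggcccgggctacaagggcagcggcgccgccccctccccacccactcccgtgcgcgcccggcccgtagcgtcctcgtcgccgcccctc
Tet2 promoter, chr3:133544341-133544640, minus strand: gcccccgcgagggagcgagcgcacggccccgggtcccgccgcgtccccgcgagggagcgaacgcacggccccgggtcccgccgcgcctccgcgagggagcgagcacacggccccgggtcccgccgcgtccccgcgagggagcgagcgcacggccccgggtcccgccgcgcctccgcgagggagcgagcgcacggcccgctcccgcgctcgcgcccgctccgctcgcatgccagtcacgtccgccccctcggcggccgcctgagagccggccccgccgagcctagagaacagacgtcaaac
Such a motif lay in 0.813% of 32851 RefSeq promoter windows of 300 bases. The table held windows for 9 of the member genes, and the motif was in the windows printed for Uhrf1 (1 stretch) and Dnmt1 (2 stretches) and in none of the others. The other Uhrf1 window and the other two Dnmt1 windows did not hold it. The NF-Y motif CCAAT, on either strand of 37.4% of all windows, occurred in the printed windows of Uhrf1 (2 times) and Dnmt1 (3 times). It also occurred in the other Uhrf1 window (3 times), another Dnmt1 window (5 times) and a window each of Tet3, Idh1 and Idh2 (1 time each). The printed Uhrf1 and Dnmt1 windows held 33 CpG each, that of Dnmt3b 30 and that of Tet2 57, against a median of 7 over all windows. The other Dnmt1 windows held 2 and 12 CpG and the other Uhrf1 window 12. A match is a description of the letters and no evidence of binding. Which transcript start these cells use was not measured.

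Kit, the sorted receptor (Entrez gene 16590), measured 28.7, 39.2, 15.7 and 30.9 in the CD117neg arrays of mice _948, _951, _952 and _953, and 754, 741, 599 and 909 in the CD117pos arrays, so the arrays followed their labels. Of 9 measured myeloid progenitor markers, 5 rose and 0 fell in CD117pos, Kit itself, fixed by the sort, among the 5. Of the mature monocyte and macrophage markers, 10 of 11 fell in CD117pos, and of the mature neutrophil markers 8 of 9. The summed intensity of the former list was 38626 to 48286 in CD117neg and 2401 to 8359 in CD117pos arrays. That of the latter was 57191 to 63987 and 13635 to 31201. All 5 NK, 6 erythroid and 5 megakaryocyte markers measured had means under 64 over the 8 arrays, as had 4 of 5 T cell, 4 of 6 B cell, 6 of 7 endothelial and stromal, 4 of 7 mast cell and basophil and 2 of 4 plasmacytoid dendritic cell markers. Among these lists Mcpt8 of mast cells and basophils rose by 1.69, while Hdc of that list fell by 1.34, Cd22 of B cells by 3.34, Vwf of megakaryocytes by 1.53 and Pecam1 of endothelium by 0.89 on the log2 scale. The CD117pos array of mouse _951 stood apart: its log2 intensities correlated with the other CD117pos arrays at 0.928 to 0.930, against 0.985 to 0.987 among those 3. Of 18193 named genes, 993 measured over 64 and over 2 times their highest value elsewhere in this array alone, against 5 to 38 in each of the other arrays, and 0 of the 25 member probe sets did so in any array. In sorted bulk cells, fewer cells of a type and less RNA per cell cannot be told apart.

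Differences below are CD117pos minus CD117neg on the log2(intensity + 16) scale, with their SE. They were tested with limma, blocking on the mouse, over the 45037 probe sets other than controls, and rises and falls are those with an adjusted p under 0.05. Of the 25 member probe sets, 3 rose and 3 fell, against a background of 5.60% of all probe sets higher and 10.9% lower. The falls are close to the background share and both counts are small, so neither is read as a property of the set. Rises made up 34.0% of the calls over all probe sets, but 51.4% after quantile normalisation and 45.1% after centring. The median difference was 0.15 over the members and -0.02 over all probe sets. In 5 member probe sets every CD117pos array lay above every CD117neg array, and in 4 every one lay below, while 8.08% and 15.0% of all probe sets did so. A mean of at least 64 in a fraction was reached by 20 of the 25, and the other 5 were the probe sets of Tet1 and Tet3. Leaving out the _951 CD117pos array, with no block, 7 rose and 4 fell. Without mouse _948, 0 rose and 1 fell, without _952 0 and 1, and without _953 1 and 1.

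**Figure D1:**
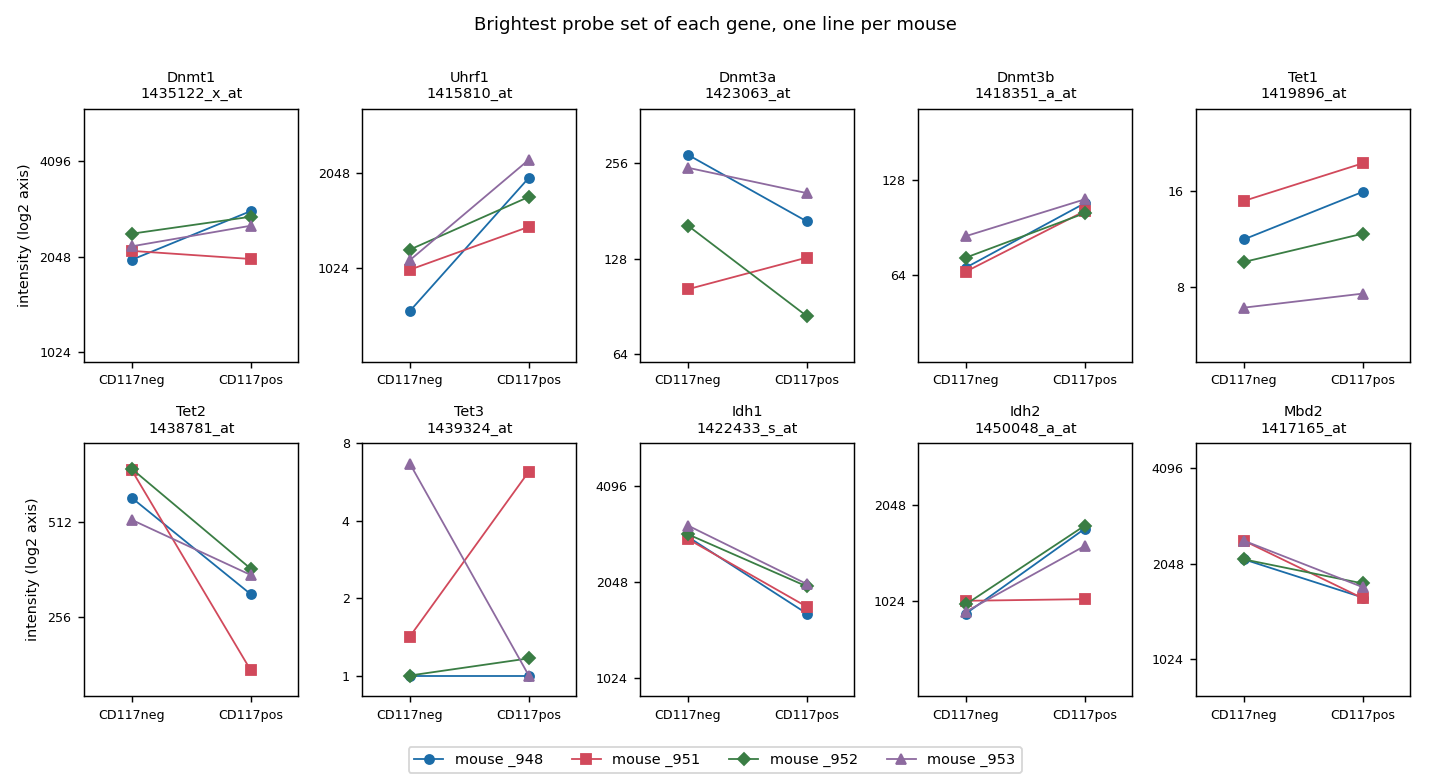
Intensity of the brightest probe set of each gene in the CD117neg and CD117pos array of each mouse, on log2 axes whose ranges differ between panels. Lines join the fractions of 1 mouse. All 4 lines go up for Uhrf1, Dnmt3b and Idh2 and down for Tet2, Idh1 and Mbd2, while Tet1 stays under 20 and Tet3 under 7.

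**Figure D2:**
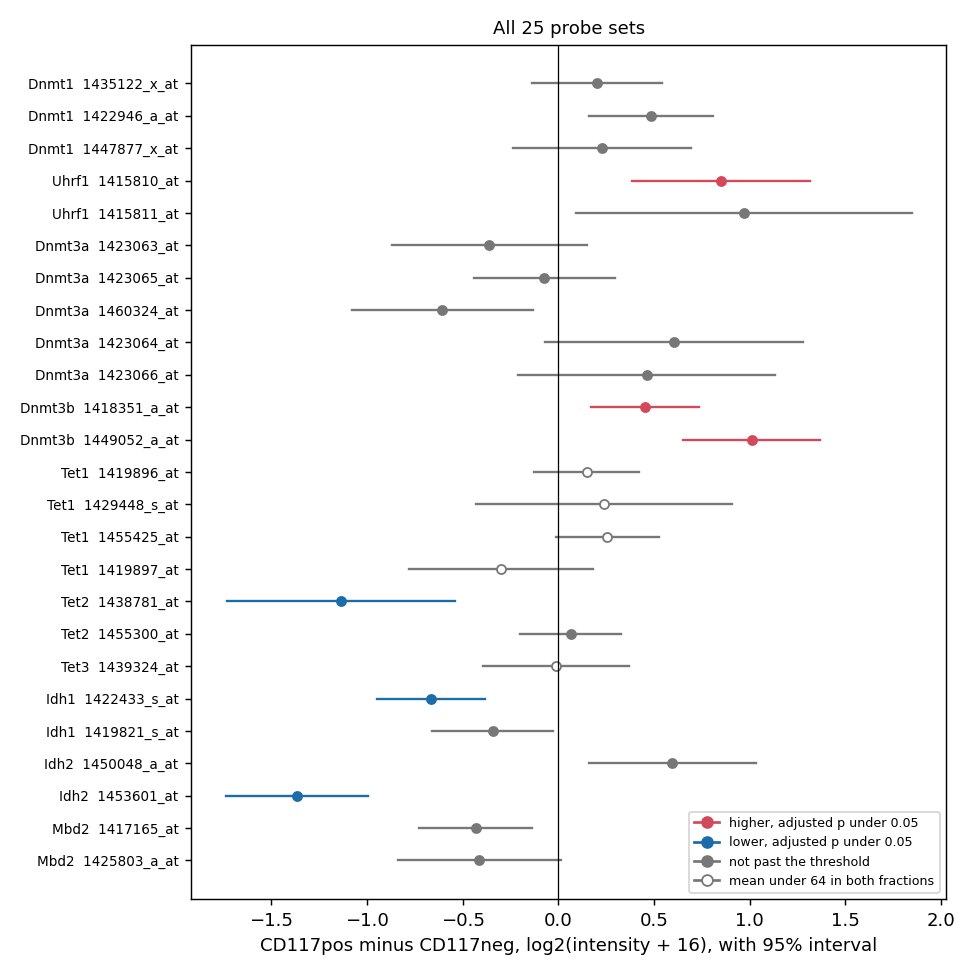
Log2 differences of all 25 probe sets, CD117pos minus CD117neg, with 95% intervals from limma over 4 mice. Red and blue mark the 3 probe sets past the threshold in each direction, and open circles those with means under 64 in both fractions.

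Of 5 probe sets of the maintenance genes, 1 of Uhrf1 rose and the other Uhrf1 and all 3 Dnmt1 probe sets did not pass, against 5.60% higher over all probe sets. Uhrf1 (Entrez gene 18140, probe set 1415810_at) measured 751, 1014, 1173 and 1087 in the CD117neg arrays of mice _948, _951, _952 and _953. In the CD117pos arrays, in the same order of mice as in all lists below, it measured 1974, 1384, 1720.3 and 2251. Every CD117pos array lay above every CD117neg array, and mouse _951 had the lowest CD117pos value. The rise was 0.85 ± 0.19, a 1.80-fold higher intensity (limma adjusted p = 0.0322). The call ended without mouse _948 (adjusted p = 0.117), _952 (0.085) or _953 (0.137), with a pseudocount of 1 (0.0827) and with the mean of both Uhrf1 probe sets (0.0596). The second Uhrf1 probe set, 1415811_at, measured 151, 348, 458 and 328 in CD117neg and 705, 370, 558 and 895 in CD117pos. It was higher in CD117pos in 4 of 4 mice, by 2.11, 0.08, 0.27 and 1.41, but the groups overlapped and the mean difference of 0.97 ± 0.36 did not pass (adjusted p = 0.133). It passed without the _951 CD117pos array and with no block (1.19, adjusted p = 0.0316), but without mouse _948 was 0.59 (adjusted p = 0.339).

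Dnmt1 (Entrez gene 13433) had 3 probe sets, of which none passed. The brightest, 1435122_x_at, measured 2005, 2139, 2423 and 2211 in CD117neg and 2854, 2017, 2740.1 and 2567 in CD117pos. The fractions overlapped, and mouse _951 alone was lower in CD117pos. The difference was 0.20 ± 0.14 (adjusted p = 0.401, 95% interval -0.14 to 0.54). The ending _x_at marks probe sets that Affymetrix lists as able to bind other transcripts too, and 1447877_x_at, with 0.23 ± 0.19 (adjusted p = 0.5), is of the same kind. The probe set built on the Dnmt1 reference transcript, 1422946_a_at, measured 1636, 1705, 1821 and 1499 in CD117neg and 2574, 2060.3, 2282 and 2435 in CD117pos. Here the fractions did not overlap. The difference of 0.48 ± 0.13 lay just outside the threshold (adjusted p = 0.0604), and passed without the replicate block (0.0218), without mouse _951 (0.0389), after quantile normalisation (0.0181) and after centring (0.0435). It was further from the threshold without mouse _948 (limma adjusted p = 0.221), _952 (0.14) or _953 (0.201) and with a pseudocount of 1 (0.156).

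S-phase genes leaned to the same fraction. Of 24 measured, 9 rose and 0 fell, against 7.53% and 12.9% of all 18193 named genes by their brightest probe sets, and their median difference was 0.61, against -0.01 over those genes. Tk1, thymidine kinase, rose by 1.21 ± 0.18, Rfc4, a clamp loader subunit gene, by 1.10 ± 0.15 and Pold1, a catalytic subunit of DNA polymerase delta, by 1.07 ± 0.15 (limma adjusted p between 0.00692 and 0.0103). The summed S-phase intensity was 28515 to 38807 in CD117neg and 47543 to 53132 in CD117pos arrays. The lowest CD117pos sum, 47543, was that of mouse _951. In that array Fen1 measured 7193 and Ccne1 4281, against 2898 to 3919 and 528 to 726 in the other CD117pos arrays. Both genes were named after their values were seen. They carry part of the _951 sum, so its distance from the CD117neg sums is not read. By mouse, the median S-phase difference was 0.85, 0.18, 0.49 and 0.54, beside Uhrf1 differences of 1.38, 0.44, 0.55 and 1.04 (1415810_at). Mouse _948 had the largest and mouse _951 the smallest value in both. The part of S-phase cells in the Uhrf1 rise was not tested. The count of S-phase rises was 2, 13, 4 and 1 on leaving out mouse _948, _951, _952 or _953, and 14 without the _951 CD117pos array and with no block. Uhrf1 differed by 0.65 ± 0.12 more than Dnmt1 on the brightest probe sets, in 4 of 4 mice (exact permutation p = 0.125, the smallest that 4 mice allow, 0.175 after adjustment over 7 gene pairs). With Uhrf1 1415811_at and Dnmt1 1422946_a_at, Uhrf1 differed by more in mice _948 (2.11 against 0.65) and _953 (1.41 against 0.69). It differed by less in mice _951 (0.08 against 0.27) and _952 (0.27 against 0.32). The order within a mouse thus depends on the probe sets.

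**Figure D3:**
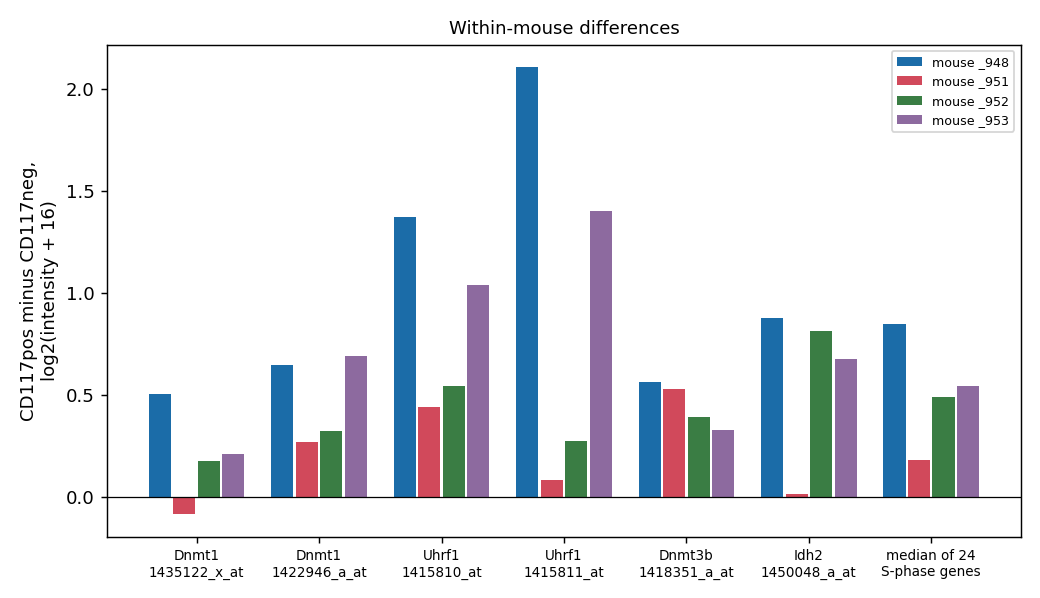
Within-mouse log2 differences, CD117pos minus CD117neg, for probe sets of Dnmt1, Uhrf1, Dnmt3b and Idh2 and the median of 24 S-phase genes, 1 bar per mouse. Mouse _951 has the lowest bar for Dnmt1, Uhrf1, Idh2 and the S-phase median, but 0.53 for Dnmt3b.

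Among 13 maintenance partners and related factors, 0 passed in either direction in limma (median 0.13). The largest difference over 4 mice was that of Dnmt3l, a cofactor of the de novo methyltransferases (0.75 ± 0.37, adjusted p = 0.243). It measured 593 in the _951 CD117pos array and 55.3 to 114 in the other arrays, and without mouse _951 its mean difference was 0.26, below the 0.72 of Hells. At an unadjusted p under 0.05 the list had 2 genes, Hells (0.57) and Kat5 (-0.47), named after their values were seen. Under 3 alternatives 1 gene rose (quantile normalisation, without mouse _951, and without the _951 CD117pos array with no block). Under 4 alternatives 1 fell (no replicate block, a pseudocount of 64, a mean of at least 64, and that same array left out).

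Of the de novo methyltransferases, Dnmt3b (Entrez gene 13436) rose on both probe sets and Dnmt3a passed on none. On 1418351_a_at it measured 67.6, 65.7, 72.7 and 85.0 in CD117neg and 108, 102, 100.4 and 111 in CD117pos, a difference of 0.45 ± 0.11 (adjusted p = 0.0476). On 1449052_a_at the values were 36.3, 40.0, 58.0 and 65.0, and 103, 111, 139 and 107, a difference of 1.01 ± 0.15 or 2.01-fold (adjusted p = 0.00884). No CD117pos array overlapped the CD117neg arrays on either probe set, and the differences in mouse _951 were 0.53 and 1.19, near those of mouse _948 (0.57 and 1.18). All values lay above the array medians of 27.5 to 32.8. The first call, close to the threshold, ended without any one of the 4 mice (adjusted p = 0.187, 0.0616, 0.143 and 0.117), with a pseudocount of 1 (0.113) and with an intensity trend (0.106). The second ended without mouse _948 (0.0597) or _952 (0.0548).

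Dnmt3a (Entrez gene 13435) had 5 probe sets, all built on the same expressed sequence, and none passed. The brightest, 1423063_at, measured 272, 103, 163 and 248 in CD117neg and 168, 129, 84.4 and 206 in CD117pos. Mice _948 and _953 were high in both fractions, and the difference was -0.36 ± 0.21 (adjusted p = 0.319). On 1460324_at the values were 81.6, 67.7, 83.0 and 120 against 70.8, 48.9, 27.0 and 68.9, lower in 4 of 4 mice (-0.61 ± 0.19, adjusted p = 0.0919). On 1423064_at they were 38.7, 26.1, 34.6 and 66.3 against 141, 20.6, 53.2 and 112. The CD117pos arrays of mice _948 and _953 were thus the high ones, and the difference was 0.60 ± 0.27 (adjusted p = 0.211). That probe set passed without the _951 CD117pos array and with no block (1.005, adjusted p = 0.0469), but without mouse _948 differed by 0.30 (adjusted p = 0.493). Probe set 1423066_at had the same 2 high arrays, 120 and 112 against 24.7 and 41.0 in the others, with a difference of 0.46 ± 0.27, or 0.19 without mouse _948. The fifth, 1423065_at, differed by -0.07 ± 0.15. Probe sets of this gene thus gave differences of both signs, and where on the transcript each lies was not analysed here. The Dnmt3a difference was 0.81 ± 0.24 below that of Dnmt3b on the brightest probe sets, in 4 of 4 mice (exact permutation p = 0.125, adjusted 0.175). The 0.60 of 1423064_at and 0.46 of 1423066_at lay above the 0.45 of Dnmt3b 1418351_a_at, but below the 1.01 of Dnmt3b 1449052_a_at. The order of these genes thus depends on the probe set and is not read.

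Among the TET genes only Tet2 was well measured. On 1438781_at Tet2 (Entrez gene 214133) measured 609, 744, 752 and 519 in CD117neg and 303, 174, 364 and 348 in CD117pos. Every CD117pos array lay below every CD117neg array, and mouse _951 was lowest. The fall was -1.13 ± 0.24 (2.195-fold lower, adjusted p = 0.0288). The mature myeloid markers fell with it, and mouse _951 again had the lowest values, a median difference of -4.60 for the monocyte list and -5.17 for the neutrophil list while the other mice had -3.59 to -2.68 and -3.40 to -3.22. In mice _948, _952 and _953 Tet2 differed by -0.97, -1.01 and -0.56. The monocyte medians of these mice were -3.42, -2.68 and -3.59 and the neutrophil medians -3.22, -3.40 and -3.29, so the orders differed. The part of the mature markers in the Tet2 difference was not tested. The call ended without mouse _948 (0.107), _952 (0.106) or _953 (0.0616) and with a pseudocount of 1 (0.0702), and held without mouse _951 (adjusted p = 0.0137). The mean of both probe sets gave -0.54 (adjusted p = 0.0476).

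The other Tet2 probe set, 1455300_at, showed no such fall. It measured 188, 249, 153 and 163 in CD117neg and 203, 261, 156 and 172 in CD117pos, within-mouse differences of 0.10, 0.06, 0.03 and 0.06. The mean difference was 0.06 ± 0.11 (adjusted p = 0.758), with a 95% interval of -0.20 to 0.33 that does not reach the -1.13 of the first. Mouse _951 was the highest in both fractions.

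Tet1 (Entrez gene 52463) had 4 probe sets with values between 1 and 34.5, of which 3 lay below the array median on all 8 arrays. Its brightest, 1419896_at, measured 11.3, 14.9, 9.56 and 6.86 in CD117neg and 15.9, 19.6, 11.7 and 7.60 in CD117pos (adjusted p = 0.452). The single Tet3 probe set (Entrez gene 194388) ranged from 1 to 6.68. At such levels differences were not read, and contrasts of Tet2 with Tet1 or Tet3 are not interpreted. Low signal does not show that these transcripts were absent, since a probe set can fail to detect its gene.

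Idh1 was lower in c-kit-high cells. On 1422433_s_at Idh1 (Entrez gene 15926) measured 2842, 2796, 2895 and 3084 in CD117neg and 1629, 1711, 1983 and 2018 in CD117pos. The fractions were far apart compared with the spread among mice, and the fall was -0.66 ± 0.11 (1.58-fold lower, adjusted p = 0.0152). The call ended without mouse _948 (0.0865), _952 (0.0636) or _953 (0.069) and with a pseudocount of 1 (0.0688), and held without mouse _951 (0.0187). The second probe set, 1419821_s_at, was lower in 4 of 4 mice, by -0.46, -0.54, -0.27 and -0.10. Its groups overlapped and its mean of -0.34 ± 0.13 did not pass (adjusted p = 0.139). The ending _s_at marks probes shared by several transcripts. By mouse the brightest probe set differed by -0.80, -0.70, -0.54 and -0.61. Mouse _951, lowest for the mature myeloid markers, was lowest on the second Idh1 probe set but not on the first. The part of those markers' cells in the falls of Idh1 and Idh2 was not tested.

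Idh2 (Entrez gene 269951) gave opposite signs on its 2 probe sets. The brightest, 1450048_a_at, built on the reference transcript, measured 932, 1022, 997 and 945 in CD117neg and 1725, 1035, 1765 and 1523 in CD117pos. It was 1.51-fold higher in CD117pos (0.60 ± 0.18), with mouse _951 nearly level at 0.02, and the fractions did not overlap. It did not pass (adjusted p = 0.0753), but passed without mouse _951 (0.79, adjusted p = 0.00967), without the _951 CD117pos array and with no block (0.77, 0.00156), without the replicate block alone (0.045) and after quantile normalisation (0.0233). Without mouse _948, _952 or _953 it was further from the threshold (limma adjusted p = 0.257, 0.243 and 0.225), as with a pseudocount of 1 (0.154). The mean of both Idh2 probe sets gave the other sign, -0.38 (adjusted p = 0.144). The dimmer 1453601_at, built on a RIKEN cDNA clone, measured 255, 277, 273 and 258 in CD117neg and 99.4, 67.5, 114 and 98.2 in CD117pos. It fell by 1.36 ± 0.15, or 2.58-fold, in 4 of 4 mice (adjusted p = 0.00421), by mouse -1.23, -1.81, -1.15 and -1.26 with _951 lowest, and this call held without any 1 mouse (adjusted p between 0.00265 and 0.0346). Which part of the gene each probe set reads was not analysed here, so a change in Idh2 as a whole cannot be stated. The Idh1 difference was 1.26 ± 0.20 below that of the brightest Idh2 probe set, in 4 of 4 mice (exact permutation p = 0.125, adjusted 0.175). Beside the other Idh2 probe set the order turns, -0.66 for Idh1 and -1.36 for 1453601_at, so no order of the 2 genes is read.

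**Figure D4:**
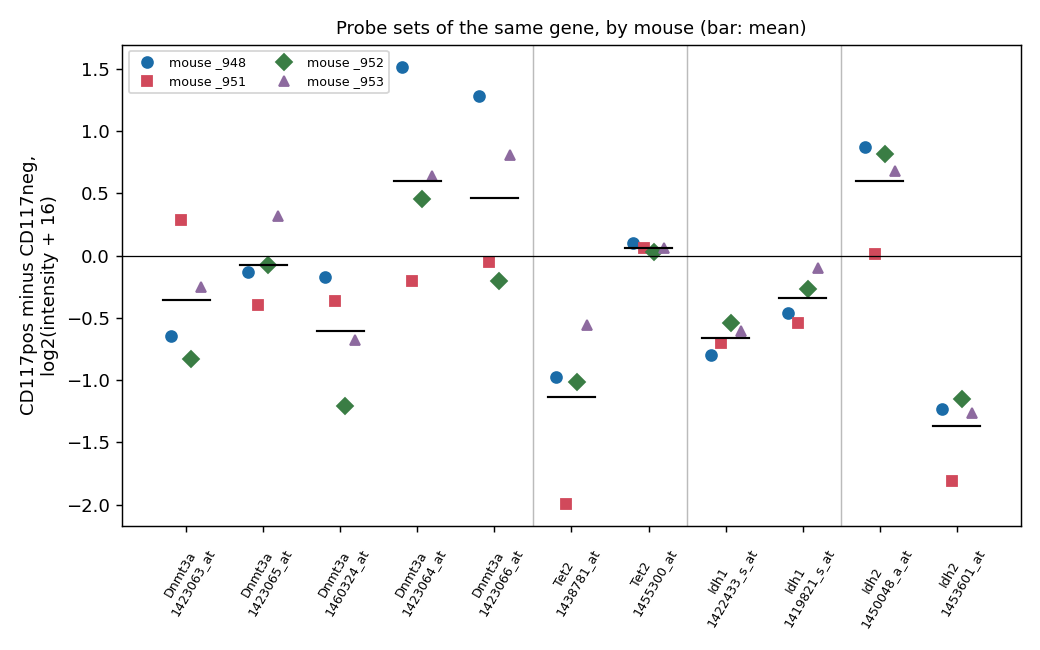
Within-mouse log2 differences for each probe set of Dnmt3a, Tet2, Idh1 and Idh2, with the mean as a bar. Probe sets of Dnmt3a scatter on both sides of 0, those of Idh2 have means of 0.60 and -1.36, and those of Tet2 -1.13 and 0.06.

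Mbd2 (Entrez gene 17191), the methyl-CpG reader, was lower in CD117pos on both probe sets without passing. On 1417165_at it measured 2114, 2420.0, 2115 and 2421 in CD117neg and 1603, 1594, 1776 and 1728 in CD117pos. The fractions did not overlap, and the difference was -0.43 ± 0.12 (adjusted p = 0.0624). It passed without the replicate block (0.0241), with a pseudocount of 64 (0.021) and with an intensity trend (0.0267), but was far from it after quantile normalisation (0.28) or centring (0.135). On 1425803_a_at the difference was -0.41 ± 0.17, lower in 3 of 4 mice (adjusted p = 0.179).

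The mice themselves differed past the threshold in no member by limma's moderated F-test of the mouse terms (0 of 25 with adjusted p under 0.05, 4 with an unadjusted p under 0.05). Across all 45037 probe sets 0 passed that test. The lowest unadjusted p, 0.0198, was that of Tet2 1455300_at.

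Other genes of the pathway were taken by their brightest probe sets. Their mean intensities are given ± the SD over the 4 arrays of a fraction, and log2 differences ± SE as before. Of 16 measured genes of active demethylation and base excision repair, 4 rose and 5 fell (median 0.13). For this and the next 4 lists, 7.53% of all named genes rose and 12.9% fell. The stress-response genes Gadd45g and Gadd45a fell, from 143 ± 68.4 to 18.2 ± 7.17 (-2.12 ± 0.22, adjusted p = 0.0035) and from 575 ± 126 to 180 ± 34.3 (-1.59 ± 0.19, adjusted p = 0.00509). Apobec1, a cytidine deaminase gene, fell by 1.52 on the log2 scale, from 1350 ± 186 to 463 ± 78.6. The 4 rises, named after their values were seen, were Gadd45b (0.96 ± 0.24, adjusted p = 0.0433), of the same family as the falling Gadd45 genes, and the base excision repair genes Ung (1.21), Nthl1 (0.99) and Apex1 (0.94). The falls were 4, 5, 5 and 5 and the rises 1, 4, 3 and 1 on leaving out mouse _948, _951, _952 or _953. Of 18 methyl-CpG readers and NuRD subunits, 1 rose and 2 fell (median -0.01), near the shares of all genes. Hdac2, a deacetylase of NuRD, rose from 709 ± 43.9 to 1158 ± 134, while the methyl-CpG-binding factor gene Zbtb4 fell from 165 ± 58.8 to 91.0 ± 41.0 and Chd4, the NuRD ATPase gene, from 668 ± 63.4 to 484 ± 10.9. Those falls and that rise were 0 without mouse _948, _952 or _953 or with a pseudocount of 1, and the falls also after quantile normalisation or centring. Falls of this list numbered 4 with no replicate block, a pseudocount of 64, a mean of at least 64 or an intensity trend. They also numbered 4 with 1 probe set per gene or the mean of a gene's probe sets.

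Of 19 genes of the methyl donor cycle and folate metabolism, 6 rose and 0 fell (median 0.25). Shmt1, the cytosolic serine hydroxymethyltransferase gene, rose from 520 ± 124 to 1262 ± 229 (1.27 ± 0.13, adjusted p = 0.00349), Mthfd1, a folate enzyme gene, by 0.91 ± 0.18 and Srm, the spermidine synthase gene, by 0.87 ± 0.19. The rises were 1 with a pseudocount of 1, and 1, 5, 1 and 1 on leaving out mouse _948, _951, _952 or _953. Of 23 genes around 2-oxoglutarate, 1 rose and 3 fell (median -0.03), also near the shares of all genes. Idh3a, a subunit of the NAD-dependent mitochondrial isocitrate dehydrogenase, rose from 672 ± 111 to 1459 ± 63.9 (1.11 ± 0.13, adjusted p = 0.00464). Glud1, glutamate dehydrogenase, fell by 0.79 ± 0.18 on the log2 scale and Dlst, a subunit of 2-oxoglutarate dehydrogenase, by 0.70 ± 0.17. The 3 falls became 0 when any of mice _948, _952 and _953 was left out, with the smaller pseudocount of 1, after centring and after quantile normalisation. The count of rises was 1 in each of these except quantile normalisation, which gave 5. Falls numbered 4 with a pseudocount of 64, a mean of at least 64, 1 probe set per gene or the mean of a gene's probe sets. Leaving out mouse _951, or its CD117pos array with no block, also gave 4 falls. Of 12 partners of TET enzymes, 2 rose and 0 fell (median -0.04): Dcaf1, an E3 ligase substrate receptor gene, from 502 ± 85.0 to 1047 ± 233, and Cul4a, its cullin, from 780 ± 79.2 to 1083 ± 133. On leaving out mouse _948, _951, _952 or _953 there were 0, 1, 0 and 0 rises, and 0 with a pseudocount of 1.

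Genes most like each member other than Tet1 and Tet3 over the 8 arrays were found among 9408 named genes with a mean of at least 64, by the root mean square difference of centred log2 values. This measure follows both the fractions and the mice. Uhrf1 was nearest to Nup85, a nuclear pore gene (0.07 log2 units), then Wdr90 and Pex10. Dnmt3b was nearest to Srpk1 (0.04), Blmh and Utp11, and Tet2 to Znfx1 (0.09), Hook3 and Pknox1. Idh1 was nearest to Efhd2 (0.06), Rbpj and Gosr2, Idh2 to Abitram (0.08), Uqcc1 and Hdac3, and Mbd2 to Myl12a (0.05), Psme4 and Birc6. Dnmt1 was nearest to Dcp1b (0.04), Mrpl10 and Cab39l, whereas the nearest genes of Dnmt3a, Cep170b, Tubb6 and Inafm1, were 0.24 to 0.25 away.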

How the data were processed

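PolyA RNA was column-purified, amplified and biotin-labelled for 1-colour Affymetrix arrays, per the labels' protocols. The deposited values were one linear intensity per probe set and array. The software that summarised probes, the scaling between arrays and detection calls are not named in the labels. Between 841 and 898 values per array were exactly 1 and up to 4 lay below 1, and array medians were 27.5 to 32.8. Arrays have no read depth, and their number limits the precision.

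Groups and mice came from the array titles. Symbols came from the platform annotation, and the identifiers of all 10 member genes matched a current mouse gene table. The 64 control probe sets were left out. Values were transformed as log2(intensity + 16), which understates changes of dim probe sets, and fitted with limma 3.58.1 in R 4.3.3 (fraction plus mouse, lmFit and eBayes, two-sided, Benjamini-Hochberg over 45037 probe sets). The script was tested on simulated data. Pairs of genes were compared with exact permutation tests that flip signs within mice. Named genes were the members, Kit, up to 3 called genes per related list with the largest change (or the one with the largest difference) and the 3 nearest genes. Members and lists were chosen with earlier results of these data known. As the design text pairs fractions within mice, the 2 arrays of a mouse were compared as deviations from their fraction means, which correlated over named genes at 0.206, 0.223, 0.271 and 0.12 within mice _948, _951, _952 and _953, at most 0.109 between mice. Alternatives were other pseudocounts, scalings, filters, probe set rules, an intensity trend, no block and leaving out each mouse. Plots used matplotlib 3.10.9 (Python 3.11.15).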

Additional observations from a re-analysis of the deposited data

Results flagged for a closer look

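In 3 of 50 groups of 4 arrays, a member's highest or lowest array lay far from the rest, where chance flags about 1 in 20 groups. The Mbd2 probe set 1425803_a_at measured 134 in the CD117neg array of mouse _948, against 168 to 173 in the other CD117neg arrays. Tet3 measured 6.68 in the CD117neg array of mouse _953 against 1 to 1.42 in the others, and 6.21 in the CD117pos array of mouse _951 against 1 to 1.17. Both Tet3 values lie under the array medians.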

How the results depend on the processing

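Over the member probe sets, 272 of the recomputed differences stayed on the same side of the threshold, 21 lost it, 20 gained it, and 0 called differences changed sign. Of the 25 probe sets, 3 rose and 3 fell in the fit described above. The count of rises was 5 with no replicate block, after quantile normalisation and among probe sets with a mean of at least 64, 1 with a pseudocount of 1, 1 (of 10 genes) when a gene's probe sets were averaged and 7 without the _951 CD117pos array and with no block. Falls numbered 1 with a pseudocount of 1. Leaving out 1 mouse gave 0 to 4 rises and 1 to 3 falls. With no replicate block, the calls of Dnmt1 1422946_a_at, Idh2 1450048_a_at and Mbd2 1417165_at were gained, and none of the 6 calls was lost. Over all probe sets, 2524 rose and 4892 fell, 34.0% rises among calls. Rises made up 51.4% after quantile normalisation (3945 and 3724) and 45.1% after centring (3317 and 4039). A pseudocount of 1 gave 1134 and 2930, and leaving out mouse _948, _951, _952 or _953 gave 456 and 1894, 3575 and 5571, 740 and 2278, and 513 and 2044. Without the _951 CD117pos array and with no block there were 3900 and 5963. Fits without a mouse rest on 3 pairs. Reader and NuRD falls were 4 with no replicate block, and S-phase rises 5 with a pseudocount of 1. The cause of these shifts was not tested. Low signal, mostly under the array median, limits Tet1 and Tet3.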

Other observations

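Dnmt3l and Dppa3 belong to the list of maintenance partners and related factors and are named here after their values were seen. Dnmt3l, a cofactor of the de novo methyltransferases, measured 593 in the CD117pos array of mouse _951, against 70.6 to 94.1 in the other CD117pos arrays and 55.3 to 114 in the CD117neg arrays. Dppa3 measured 773 there, against 56.5 to 125 and 73.9 to 103. Neither passed the test between fractions (adjusted p = 0.243 for Dnmt3l and 0.578 for Dppa3, limma). The same array held the highest value of Lig3, a DNA ligase gene of base excision repair, at 9657, against 1930.1 to 1975 in the other CD117pos arrays and 1523 to 2683 in the CD117neg arrays. Genes of other lists did so too. By the rule of over 64 and over 2 times the highest other array, chosen after the data were seen, 11 of 199 listed pathway and marker genes stood out in this array. So did 993 of all 18193 named genes, a like share, so this is not read as a property of the lists. The 11 included Ccne1 of the S-phase list at 4281 (517 to 732 elsewhere), Mthfd1l of folate metabolism at 5049 (1574 to 1986), Cd8a of T cells at 537 (32.1 to 113) and Pdgfrb of stroma at 551 (12.3 to 66.9).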
